A study of Mus musculus with 3 samples.

Results

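Glycolysis turns glucose into pyruvate in the cytosol. The transporter GLUT1 (Slc2a1) lets glucose in, hexokinases trap it as glucose 6-phosphate, phosphofructokinase commits it to the pathway, and aldolase, phosphoglycerate kinase and enolase carry the carbon on to pyruvate. Lactate dehydrogenase A then makes lactate, while pyruvate dehydrogenase kinase 1 (PDK1) holds pyruvate back from the mitochondria. Tumour cells are known for high glycolytic flux, and several of these genes are textbook targets of the hypoxia-inducible factor HIF-1.

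The genes described here are the 10 that cover these steps, Slc2a1, Hk1, Hk2, Pfkl, Pfkp, Aldoa, Pgk1, Eno2, Ldha and Pdk1, out of 16593 genes with a probe on the array. They were found as the 13 probes whose symbol in the platform annotation is one of those names. Of the 10 genes, 9 were detected on all 3 arrays, with a detection p under 0.01, and 11 of the 13 probes were. Pgk1, the phosphoglycerate kinase, was not detected on any array.

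The RNA came from 4T1, a mouse mammary carcinoma line, labelled with GFP and grown from the mammary pad of female Balb/C mice aged 10 to 12 weeks. Flow cytometry was used to isolate cancer cells from primary tumours (PCC), from the systemic circulation (CCC) and from lung metastases (MCC), and the sources used here do not describe the gate. All 3 groups carry the same line and label, no group has a further treatment or genotype in the labels, and the sources used here do not say how many mice stand behind an array. The title sets the question as mitochondrial biogenesis and oxidative phosphorylation in metastasis under the coactivator PGC-1α, and glycolysis is the cytosolic route beside it.

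Each group was measured once, so there is no replicate spread, no test between groups and no p-value. Levels are log2 intensities after background correction and quantile normalization, and differences are those levels subtracted between arrays. Levels of different genes come from different probes and cannot be set against each other. As a yardstick of measurement error, probes of the same gene differed in their CCC minus PCC value by a median of 0.23 and a 90th percentile of 0.63 over 1784 genes. For MCC minus PCC the gaps were 0.37 and 1.11 over 1560 genes, and for CCC minus MCC 0.41 and 1.29 over 1670 genes.

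Between 41.0% and 44.6% of 25697 probes were detected per array, and mean deposited intensity was lowest on MCC, at 232, against 410 on PCC and 462 on CCC. The epithelial keratin Krt8 was bright on all arrays, between 11.44 and 12.27, and Krt18 lay between 10.09 and 11.25, whereas Krt14 and Krt19 were detected on MCC alone. Markers of other cells set the arrays apart, which no label accounts for. The 7 measured macrophage markers summed to a normalized intensity of 3505 on PCC, 22569 on CCC and 9479 on MCC. All 7 were higher on CCC than on PCC, but on MCC 4 of 7 were lower than on PCC, with a median of -0.35, and Lyz2 (9.45-fold higher) was the brightest of them there. The 8 lymphocyte markers summed to 704, 3349 and 23711 in the same order. The 5 endothelial markers other than Kdr, which was undetected, summed to 750, 1585 and 9195. Of 5 measured fat cell markers, the 4 other than Fabp4 summed to 102, 235 and 29676. On PCC 0 of them were detected, on CCC Lpl alone, and on MCC all 4. Fabp4 was undetected on every array. On PCC, CCC and MCC, 4 neutrophil markers summed to 4146, 3008 and 4302, without Camp and Ngp, which were undetected. The 6 fibroblast markers summed to 11165, 10282 and 12031. Both sets of sums hide members that lay far apart. On MCC, S100a8 was 28.4-fold below and S100a9 29.6-fold below their PCC levels. Ltf was 51.5-fold higher on MCC than on PCC. Among fibroblast markers Dcn was bright on all arrays, while Col1a1 and Col3a1 were 4.32-fold and 6.99-fold higher on CCC than on PCC and Pdgfra was 6.68-fold lower on MCC than on PCC. Sums were 1222, 1025 and 7015 for 2 red blood cell markers and 259, 584 and 248 for 2 platelet markers. For 2 lung epithelium markers they were 494, 863 and 1657. Undetected on every array, and outside these sums, were Slc4a1, Ppbp, Gp9, Sftpc, Sftpb and Scgb1a1. The directions below are therefore those of the arrays that carry a label.

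**Figure D1:**
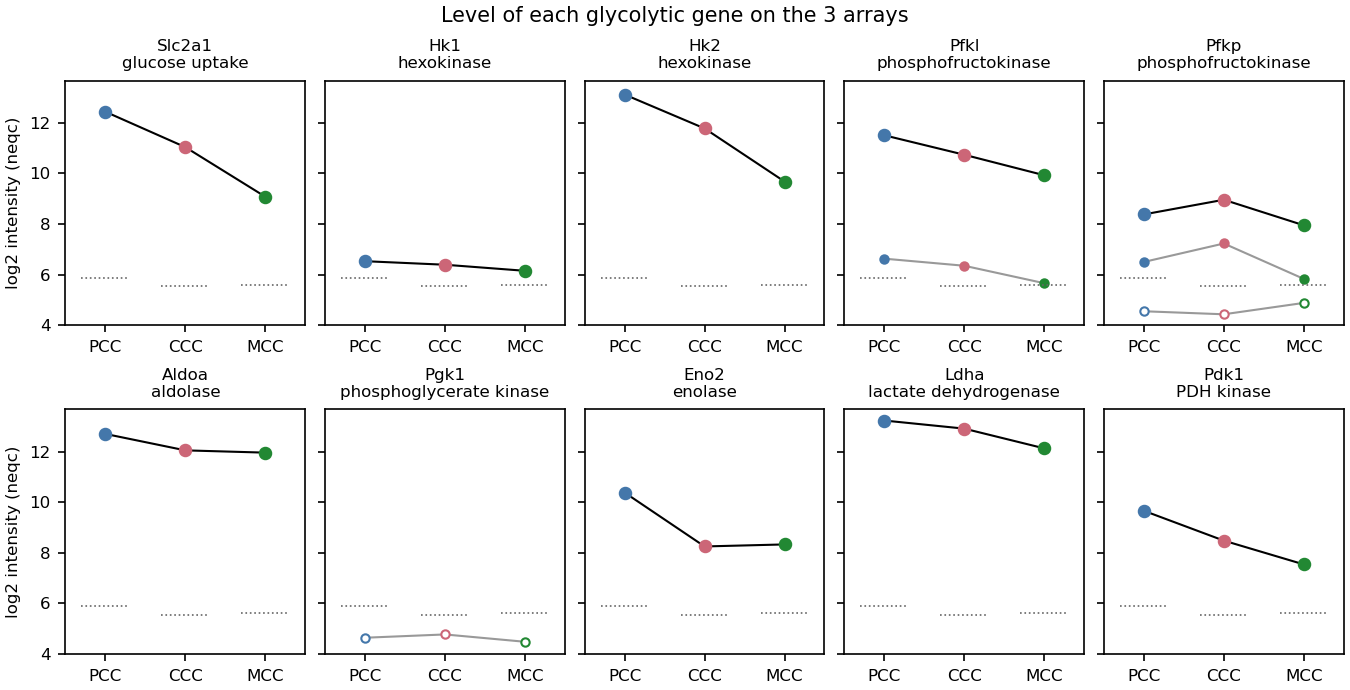
Level of each probe of the 10 genes (log2 intensity after neqc) on the PCC, CCC and MCC arrays, 1 array each. Filled points were detected and open points were not, black lines join the probe used for the gene, grey lines join its other probes, and dotted lines mark the lowest detected level of each array. Slc2a1 and Hk2 descend steeply across the arrays, Hk1 stays nearly flat, and Pfkp peaks on CCC.

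From the primary tumour to the circulation, the transporter Slc2a1, hexokinase 2, enolase 2 and PDK1 were lower on the CCC array by at least 2-fold, and Hk1, Pfkl, Pfkp, Aldoa and Ldha differed by less. Of the 9 detected genes, 8 were below 0 and 4 were at least 2-fold lower, Eno2 (4.39-fold), Slc2a1 (2.65-fold), Hk2 (2.53-fold) and Pdk1 (2.27-fold). None was at least 2-fold higher. Over the 7286 genes measurable on this pair, 3.68% were at least 2-fold lower, 4.95% at least 2-fold higher and 59.4% below 0. The median of the 9 genes was -0.77, against -0.10 over all genes. In sorted bulk RNA, fewer cells of a type and less RNA per cell cannot be told apart.

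From the primary tumour to lung metastasis all 9 detected genes were lower on the MCC array, and 6 were at least 2-fold lower. Hk2 (10.9-fold) and Slc2a1 (10.3-fold) differed most, followed by Pdk1 (4.35-fold), Eno2 (4.15-fold), Pfkl (2.98-fold) and Ldha (2.13-fold). The shares over 6829 genes measurable on this pair were 21.1% at least 2-fold lower, 14.2% at least 2-fold higher and 56.6% below 0. The 4 genes lower by at least 4-fold stand beside 5.62% of all genes. The median of the 9 was -1.57, against -0.16 over all genes. The MCC and CCC comparisons share the PCC array, so a high or low value there enters both.

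Between circulation and lung, 8 of the 9 genes had the higher level on CCC, and 3 were at least 2-fold higher, Hk2 (4.30-fold), Slc2a1 (3.89-fold) and Pfkp (2.01-fold). The share of all 7313 genes that was at least 2-fold higher was 16.6%, and 49.4% were above 0. Their median was 0.81, against -0.01 over all genes. Eno2 was the exception, 1.06-fold lower on CCC. The count of 3 depends on scaling, with 5 genes past 2-fold under 75th percentile scaling and 7 without between-array normalization, where the median of all genes was 0.83. Taken relative to the median of all genes it was 3 or 4 under each of the 4 scalings tried. On that footing 75th percentile scaling and no between-array normalization give identical values by construction.

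**Figure D2:**
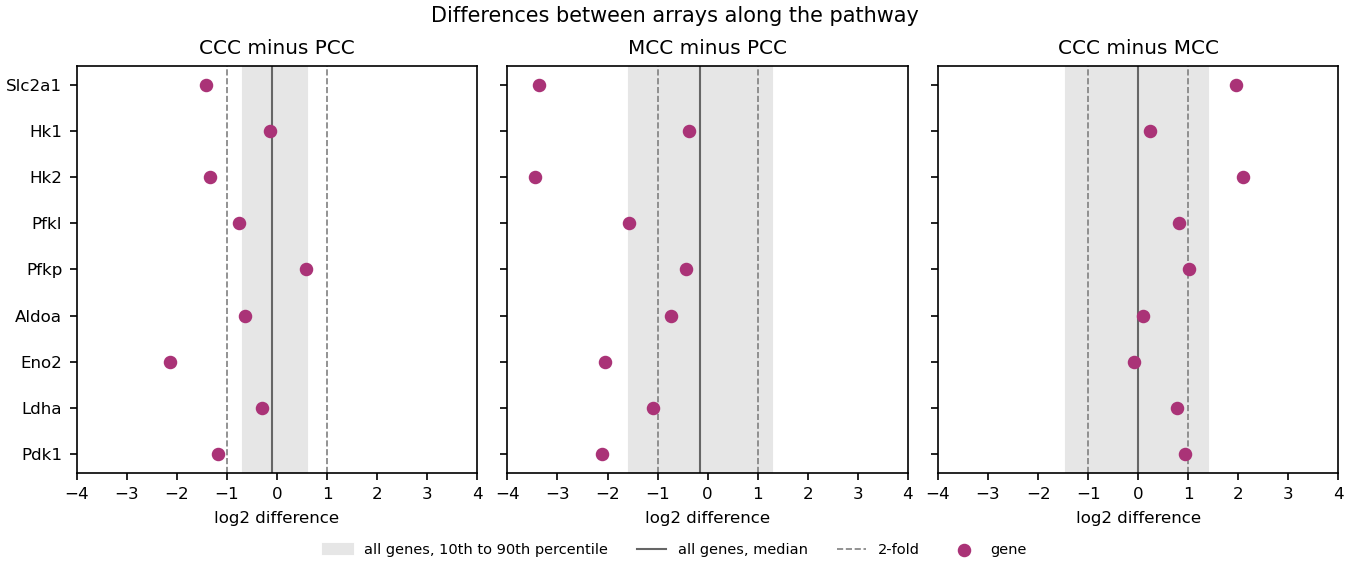
Log2 difference of the 9 detected genes, in the order of the pathway, for each pair of arrays. The grey band spans the 10th to the 90th percentile of all genes detected on both arrays, the solid line is their median and dashed lines mark 2-fold. Slc2a1, Hk2, Eno2, Pdk1 and, just outside it, Pfkl lie left of the band in CCC minus PCC, and Slc2a1 and Hk2 lie farthest left in MCC minus PCC and farthest right in CCC minus MCC.

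The order of the arrays was PCC, then CCC, then MCC for 7 of the 9 genes, Slc2a1, Hk1, Hk2, Pfkl, Aldoa, Ldha and Pdk1. Of 6753 genes detected on all arrays 29.6% had that order. Slc2a1 and Hk2 were at least 2-fold lower at both steps, from PCC to CCC and from CCC to MCC, as were 0.637% of those 6753 genes. The genes divided their descent differently. Of the log2 difference between PCC and MCC, 41.8% had been reached on CCC for Slc2a1, 38.9% for Hk2, 55.8% for Pdk1, 48.6% for Pfkl and 28.4% for Ldha. Aldoa had reached 87.7% and Eno2 104%, so as normalized here the level of both on CCC was about that on MCC. For Aldoa this depended on scaling. Its CCC minus MCC value was 0.09 here, 0.44 under 75th percentile scaling, 0.41 in the authors' scaled table and 1.23 without between-array normalization. For Eno2 the value was -0.08 here and 0.73 without between-array normalization. The shares of Slc2a1, Hk2, Pdk1, Pfkl and Ldha were also smaller in that setting. There CCC minus PCC and MCC minus PCC were -1.27 and -4.15 for Slc2a1, -0.59 and -2.43 for Pfkl, and -0.20 and -2.12 for Ldha.

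Slc2a1 encodes GLUT1, the basal glucose transporter of most cells. Its log2 level descended from 12.44 on PCC through 11.04 on CCC to 9.08 on MCC, with deposited intensities of 6453, 2668 and 349. PCC was the highest and MCC the lowest. In CCC minus PCC (-1.41) only 0.961% of genes lay lower, and in MCC minus PCC (-3.37) 1.08% did.

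The other glucose transporters differed in direction. Of the 8 listed, 4 were detected on all arrays, Slc2a4 on MCC alone, and Slc2a10, Slc2a12 and Slc5a1 on none. In CCC minus PCC 3 of the 4 were above 0 and Slc2a8 was below, with a median of 0.41. In MCC minus PCC all 4 were above 0. Over all genes 59.4% and 56.6% were below 0 in those pairs. Slc2a3 encodes GLUT3, a high-affinity carrier of neurons and white blood cells, and had levels of 6.46 on PCC, 7.04 on CCC and 8.80 on MCC. It was dim on PCC and 5.08-fold higher on MCC than on PCC. Slc2a6, a carrier found in leukocytes, had levels of 6.47, 8.89 and 8.63, which made it 5.36-fold higher on CCC and 4.47-fold higher on MCC than on PCC. Slc2a4, the insulin-responsive GLUT4 of muscle and fat, was detected on MCC alone, at least 1.91-fold higher than on PCC. Slc2a8 (-0.31 and 0.58) and Slc2a9 (0.25 and 0.08) were under 2-fold in CCC minus PCC and MCC minus PCC. The lymphocyte marker sum was also higher on CCC and MCC than on PCC, all 7 macrophage markers were higher on CCC but 4 of 7 were lower on MCC, and the fat cell sum was highest on MCC. Their part in these values was not tested.

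Hexokinases phosphorylate glucose, and the isoenzymes separated. Hk2, the inducible form of muscle, fat and many tumours, had levels of 13.12 on PCC, 11.78 on CCC and 9.68 on MCC, with deposited intensities of 10576, 4450 and 512. Its MCC minus PCC value of -3.44 left 0.952% of genes lower. Hk1, the constitutive form, was dim on every array, at 6.53, 6.39 and 6.15, where the lowest detected levels were 5.88, 5.54 and 5.60. Its differences (-0.14 in CCC minus PCC and -0.38 in MCC minus PCC) were within or near the median gap between probes of 1 gene. The sign of its CCC minus PCC value turned to 0.22 without between-array normalization, and that of its CCC minus MCC value (0.24) turned to -0.03 under 75th percentile scaling. Hk3, the hexokinase of myeloid cells, took a course of its own, with levels of 7.15, 8.26 and 5.94. It was 2.16-fold higher on CCC than on PCC, 2.32-fold lower on MCC than on PCC and 5.01-fold higher on CCC than on MCC. All 7 measured macrophage markers were at least 2-fold higher on CCC than on PCC, beside 4.95% of all genes. The part of these markers in the Hk3 value was not tested.

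Phosphofructokinase acts as a tetramer of liver (Pfkl), platelet (Pfkp) and muscle (Pfkm) subunits. Pfkl had levels of 11.51 on PCC, 10.74 on CCC and 9.93 on MCC. A dimmer probe of Pfkl had 6.63, 6.35 and 5.66, the same order with smaller differences (-0.28 and -0.98 against -0.77 and -1.57 in CCC minus PCC and MCC minus PCC). Pfkm was lower too, by 1.28-fold on CCC and 1.74-fold on MCC. Its other detected probe gave larger differences, -0.79 in CCC minus PCC and -1.14 in MCC minus PCC.

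Pfkp was the only one of the 9 genes with its highest level on CCC. Its levels were 8.38, 8.96 and 7.95, with CCC higher than PCC by 0.58 and 89.5% of genes lower. A further detected probe of the gene gave 6.50, 7.23 and 5.83, the same order with a difference of 0.73. The difference of 0.58 is below the 90th percentile of probe gaps (0.63). The remaining Pfkp probe was not detected on any array. The difference between CCC and MCC at the main Pfkp probe (1.01) just passed 2-fold, and it was 0.92 with an offset of 50, 0.97 without background correction and 0.94 in the authors' scaled table. The regulators Pfkfb2 and Pfkfb4, which set the level of the activator fructose 2,6-bisphosphate, differed by less than 2-fold in each pair.

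Aldoa encodes aldolase A, which splits the hexose into trioses. Its levels were 12.70 on PCC, 12.05 on CCC and 11.96 on MCC, so PCC was the highest and the other arrays differed by 0.09. That gap was 0.44 under 75th percentile scaling and 1.23 without between-array normalization. In MCC minus PCC it was -0.74, and 28.0% of genes lay lower. It passed 2-fold there under 75th percentile scaling (-1.25), in the authors' scaled table (-1.02) and without between-array normalization (-1.75). Of the enzymes around it, brain-type aldolase Aldoc, triosephosphate isomerase Tpi1, phosphoglycerate mutase Pgam1, muscle enolase Eno3 and pyruvate kinase Pkm were at least 2-fold lower on MCC than on PCC, by 2.68-fold, 3.11-fold, 2.61-fold, 2.27-fold and 2.86-fold. Glyceraldehyde phosphate dehydrogenase Gapdh was 1.81-fold lower, and its other detected probe gave -1.22. Of 13 listed enzymes of lower glycolysis 11 had a probe and 6 were detected on both arrays. In MCC minus PCC all 6 were below 0 and 5 at least 2-fold lower (56.6% and 21.1% of all genes), with a median of -1.40. In CCC minus PCC their median was -0.28, 5 of 6 were below 0 (59.4% of all genes) and none passed 2-fold. In CCC minus MCC all 6 were above 0 and 4 passed 2-fold, led by Pgam1 (3.02-fold). Over all genes 49.4% were above 0 and 16.6% at least 2-fold higher in that pair.

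Phosphoglycerate kinase makes the first ATP of the pathway. The single Pgk1 probe had deposited intensities of 0.218 on PCC, 8.11 on CCC and -5.68 on MCC, with detection p-values of 0.402, 0.182 and 0.764. Its levels were 4.64, 4.77 and 4.48, all under the lowest detected level of their array, so these arrays give no order for Pgk1. The enzymes on either side, Gapdh and Pgam1, were bright or well detected on all arrays.

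Eno2 encodes the gamma subunit of enolase, known from neurons and as a hypoxia target. Its levels were 10.38 on PCC, 8.25 on CCC and 8.33 on MCC, with PCC high and the other arrays alike. The CCC minus PCC value of -2.14 was the lowest of the 9 genes in that pair, and 0.124% of all genes lay lower. It was among the 0.247% of genes at least 4-fold lower on CCC. Eno3 did not share the first step, at 10.39, 10.27 and 9.21. Of the listed genes Eno1 and Gpi1 had no probe, so the enolase values are those of Eno2 and Eno3 only.

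Ldha encodes the subunit of lactate dehydrogenase that favours lactate. Its levels were 13.23, 12.91 and 12.13, and it had reached the smallest share of its descent on CCC among the genes given above. On CCC it was 1.24-fold lower than on PCC, and 31.6% of genes lay lower. On MCC it was 2.13-fold lower, and 18.9% of genes lay lower. The lactate carriers Slc16a1, Slc16a3 and Slc16a7 and their partner Bsg each had at least 1 probe and were not detected on any array. As for Pgk1, these arrays give no order for them. D-lactate dehydrogenase Ldhd was detected on MCC alone, at least 2.35-fold higher than on PCC.

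The kinases that shut off pyruvate dehydrogenase went in opposite directions on MCC. Pdk1 had levels of 9.66 on PCC, 8.48 on CCC and 7.54 on MCC, so it was 2.27-fold lower on CCC and 4.35-fold lower on MCC than on PCC. Pdk3 followed the same order, at 8.51, 8.01 and 7.07, and was 2.73-fold lower on MCC. Pdk4, the kinase induced by fasting and fatty acids, was not detected on PCC or CCC and had a level of 9.10 on MCC, at least 9.35-fold higher than on PCC and at least 11.8-fold higher than on CCC. Pdk2 was likewise detected on MCC alone, at 6.38, at least 1.41-fold higher than on PCC.

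The pyruvate dehydrogenase enzyme itself differed less. Its subunits Pdha1 and Pdhb were 1.22-fold and 1.21-fold lower on MCC than on PCC, Dlat was 1.46-fold lower and Dld, which other dehydrogenases share, 2.22-fold lower. The list holds the subunits of the enzyme with its kinases and phosphatases. All 7 of its genes detected on both arrays were below 0 in MCC minus PCC, with a median of -0.55. Of them 2 passed 2-fold, Pdk3 and Dld. Pdk2 and Pdk4, detected on MCC alone and higher there, fall outside this count. Over all genes 56.6% were below 0 and 21.1% at least 2-fold lower. The fat cell markers Adipoq, Lpl, Cidec and Plin1 were detected on MCC alongside Pdk4, at levels of 12.67, 13.82, 13.05 and 7.53, and their part in the Pdk4 value was not tested.

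**Figure D3:**
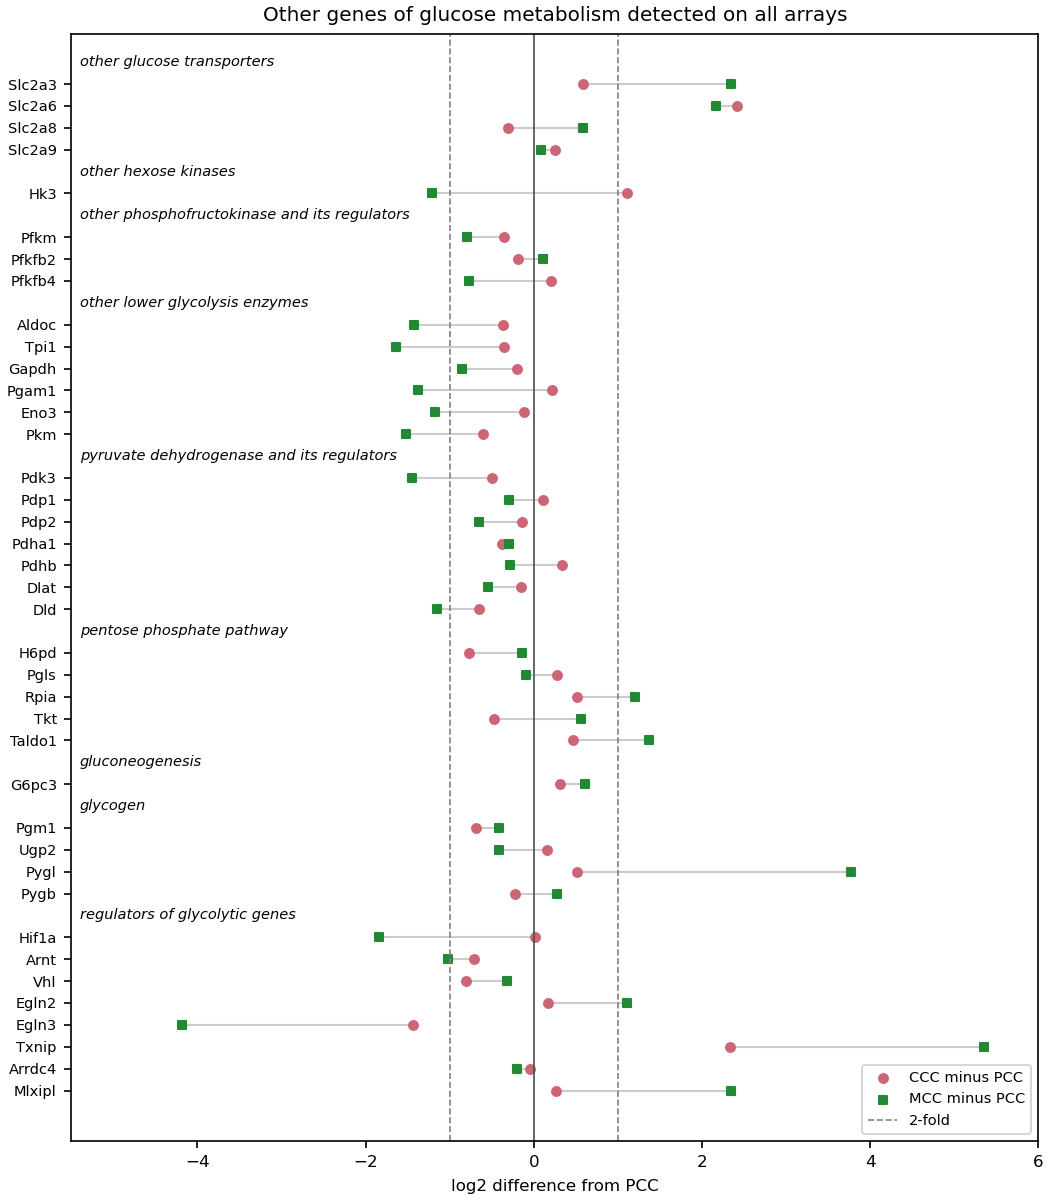
Log2 differences from PCC of 39 other genes of glucose metabolism detected on all 3 arrays, grouped by role, with circles for CCC and squares for MCC. Dashed lines mark 2-fold. The lower glycolysis enzymes lie left of 0 on MCC, the pentose phosphate genes Rpia and Taldo1 lie past 2-fold to the right, and Egln3 and Txnip are the extremes.

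Routes that branch from glycolysis went both ways. Of 8 listed pentose phosphate genes 5 had a probe and were detected. Among them Rpia (2.30-fold) and transaldolase Taldo1 (2.58-fold) were at least 2-fold higher on MCC than on PCC, transketolase Tkt was 1.47-fold higher (and 2.04-fold lower on CCC than on MCC), and H6pd and Pgls were 1.10-fold and 1.06-fold lower. Their median was 0.56, against -0.16 over all genes, of which 14.2% were at least 2-fold higher. Of 8 glycogen genes 4 were detected on both arrays, 2 above and 2 below 0 in MCC minus PCC, with a median of -0.07. Pgm1 and Ugp2 were both at -0.42, Pygb was at 0.28, and Gys1, detected on PCC alone, was at least 1.36-fold lower on MCC and at least 1.41-fold lower on CCC. The liver-type glycogen phosphorylase Pygl had levels of 8.42 on PCC, 8.92 on CCC and 12.19 on MCC, 13.7-fold higher on MCC than on PCC. A further Pygl probe gave a difference of 2.01 against 3.77. Among gluconeogenesis genes, pyruvate carboxylase Pcx, Pck1 and Fbp2 were detected on MCC alone, at least 3.15-fold, 1.77-fold and 1.05-fold higher than on PCC, and G6pc3 was 1.53-fold higher. Pcx and Pck1 are also active in fat cells, whose markers were higher on the same array, and their part in these values was not tested.

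Known regulators of glycolytic genes differed as well. Hif1a, the oxygen-regulated subunit of HIF-1, had levels of 7.53 on PCC, 7.53 on CCC and 5.69 on MCC. The lowest detected level on MCC was 5.60. Hif1a was 3.57-fold lower on MCC than on PCC, near that level, and differed by 0.01 between PCC and CCC. Its mRNA does not report its protein, which oxygen controls by degradation. The HIF target and prolyl hydroxylase Egln3 had 12.16, 10.72 and 7.98, a descent of 2.72-fold and 18.2-fold from PCC. The HIF partner Arnt was 2.03-fold lower on MCC. Myc, which drives several glycolytic genes, had levels of 6.83 on PCC and 5.66 on CCC, where the lowest detected level was 5.54. Myc was not detected on MCC, where it was at least 2.35-fold lower than on PCC.

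Txnip ran the other way. It encodes an arrestin-like protein that glucose induces and that promotes removal of GLUT1 from the cell surface. Its levels were 7.99 on PCC, 10.32 on CCC and 13.35 on MCC, 5.02-fold and 40.8-fold higher than on PCC, with 99.0% and 99.8% of genes lower. Its homologue Arrdc4, also a target of the glucose-sensing factors, had 9.05, 9.01 and 8.84. Mlxipl, which encodes one of those factors (ChREBP), was 5.08-fold higher on MCC than on PCC, and the prolyl hydroxylase Egln2 2.15-fold higher. PCC, CCC and MCC stood in the order of Slc2a1 reversed for Txnip.

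In all, 85 other genes of glucose metabolism were listed, 74 had a probe and 49 were detected on at least 1 array. On CCC against PCC 3 of 41 detected on both were at least 2-fold higher (Slc2a6, Hk3 and Txnip) and 2 lower (Egln3 and Myc), against 4.95% and 3.68% of all genes, with a median of -0.14. On MCC against PCC 8 of 39 were at least 2-fold higher and 11 lower (14.2% and 21.1% of all genes), with a median of -0.30. Genes detected on only 1 array of this pair are outside those counts. Slc2a4, Ldhd, Pdk2, Pdk4, Fbp2, Pck1 and Pcx were detected on MCC and not on PCC. Gys1, Myc and Egln1 were detected on PCC and not on MCC. On CCC against MCC 7 of 39 were at least 2-fold higher and 5 lower, where all genes gave 16.6% and 17.3%. Of the 39 detected on all arrays 13 had the order PCC, CCC, MCC, beside 29.6% of all 6753 genes detected on all arrays. Among the described genes 7 of 9 had it.

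Cell division genes were lower on MCC, as the glycolytic genes were, and differed little between CCC and PCC. The 4 measured cell division genes Aurka, Cdk1, Top2a and Plk1 summed to a normalized intensity of 4775 (PCC), 4702 (CCC) and 326 (MCC). All 4 were at least 4-fold lower on MCC than on PCC, beside 5.62% of all genes. In CCC minus PCC the 4 lay between -0.30 and 0.30. The part of dividing cells in the glycolytic values was not tested.

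The start regions of the genes with the lowest values, of Ldha and of Pfkp are shown because HIF-1 is known to bind the core letters ACGTG or GCGTG, which the capitals mark on either strand. They are 300-base windows around the annotated start, from RefSeq on GRCm38.p6 (the C57BL/6J reference, not the strain of these cells), each written 5′ to 3′ along its gene. For genes with several windows the one with the lowest coordinate is shown.
Slc2a1 (chr4:119108495-119108794, plus strand): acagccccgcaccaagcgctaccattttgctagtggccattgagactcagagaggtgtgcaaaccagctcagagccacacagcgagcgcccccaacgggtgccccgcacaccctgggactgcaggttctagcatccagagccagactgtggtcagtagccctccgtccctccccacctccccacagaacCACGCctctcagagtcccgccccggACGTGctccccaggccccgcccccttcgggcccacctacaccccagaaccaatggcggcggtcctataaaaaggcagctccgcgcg
Hk2 (chr6:82774405-82774704, minus strand): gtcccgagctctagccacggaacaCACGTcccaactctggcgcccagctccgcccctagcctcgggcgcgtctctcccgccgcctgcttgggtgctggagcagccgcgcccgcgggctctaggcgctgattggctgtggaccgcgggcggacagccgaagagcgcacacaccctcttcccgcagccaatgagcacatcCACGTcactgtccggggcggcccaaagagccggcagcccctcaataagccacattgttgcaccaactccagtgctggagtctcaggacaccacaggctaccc
Eno2 (chr6:124769624-124769923, minus strand): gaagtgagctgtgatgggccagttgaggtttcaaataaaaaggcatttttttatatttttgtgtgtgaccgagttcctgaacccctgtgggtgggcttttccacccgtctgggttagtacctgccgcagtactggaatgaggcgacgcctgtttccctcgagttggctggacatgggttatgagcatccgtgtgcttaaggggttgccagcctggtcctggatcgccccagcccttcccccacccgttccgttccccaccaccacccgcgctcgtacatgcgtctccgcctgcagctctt
Pdk1 (chr2:71872974-71873273, plus strand): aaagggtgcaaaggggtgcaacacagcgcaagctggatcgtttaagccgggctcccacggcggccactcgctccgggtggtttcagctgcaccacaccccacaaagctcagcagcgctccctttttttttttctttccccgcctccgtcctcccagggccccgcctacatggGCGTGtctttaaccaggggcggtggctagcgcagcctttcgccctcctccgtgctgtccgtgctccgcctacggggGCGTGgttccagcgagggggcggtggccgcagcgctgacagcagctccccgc
Ldha (chr7:46845554-46845853, plus strand): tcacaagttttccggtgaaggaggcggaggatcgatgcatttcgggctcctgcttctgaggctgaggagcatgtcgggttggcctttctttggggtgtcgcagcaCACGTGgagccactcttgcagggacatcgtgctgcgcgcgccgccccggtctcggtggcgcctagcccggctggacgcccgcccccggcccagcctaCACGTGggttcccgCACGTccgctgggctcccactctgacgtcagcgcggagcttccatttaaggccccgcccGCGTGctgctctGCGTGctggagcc
Pfkp (chr13:6648722-6649021, minus strand): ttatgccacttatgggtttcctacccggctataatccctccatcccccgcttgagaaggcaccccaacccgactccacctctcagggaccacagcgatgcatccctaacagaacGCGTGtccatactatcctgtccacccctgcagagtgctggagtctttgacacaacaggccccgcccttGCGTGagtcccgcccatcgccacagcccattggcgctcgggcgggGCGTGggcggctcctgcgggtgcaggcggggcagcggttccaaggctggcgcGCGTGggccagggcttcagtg

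All 10 genes matched the table of start windows, with 15 windows. Either core was present in 11 of the 15 windows, against 43.8% of 32851 windows of the same length over all genes. By gene it was in any window of 9 of the 10, and no share per gene was computed over all genes. The Aldoa windows with a match overlap and hold the same one. ACGTG was in 7 windows (19.6% of all) and GCGTG in 7 (32.4% of all). Both cores hold a CG pair and these windows are rich in G and C, between 64.7% and 67.3% in the shown windows other than Eno2, against a median of 52.7% over all windows. Whether matches go with the differences was not tested. The Slc2a1 window had 1 match of each core, the Hk2 window 2 of ACGTG and the Pdk1 window shown 2 of GCGTG. These genes were at least 2-fold lower on CCC than on PCC. Eno2, with the lowest CCC minus PCC value, had no match in its window of 56.3% G and C. The Ldha window shown had 5 matches of ACGTG, and it holds the palindrome CACGTG at 2 places, each of which counts on both strands, plus 2 of GCGTG, and Ldha differed by -0.31. The Pfkp window had 4 matches of GCGTG, and Pfkp was higher on CCC. A match is a run of letters, and no binding was measured here.

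**Figure D4:**
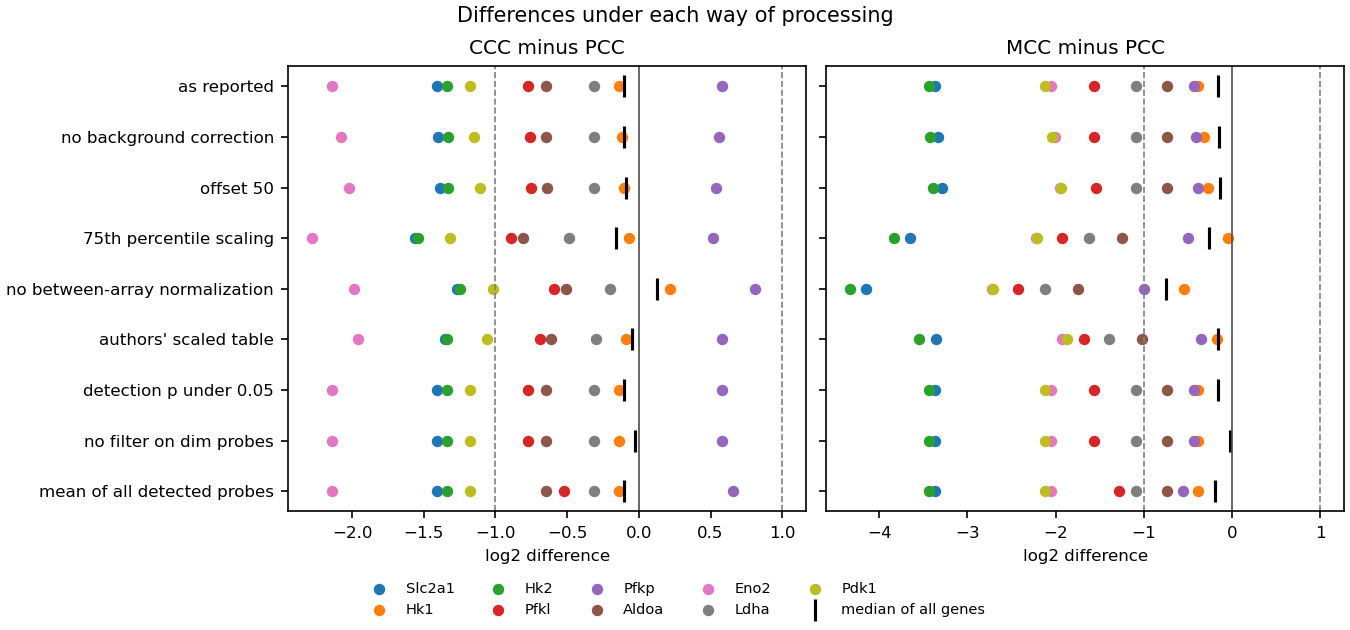
Log2 differences of the 9 detected genes under each way of processing (rows), for CCC minus PCC and MCC minus PCC, with the median of all genes as a black bar and 2-fold as dashed lines. The same 4 genes lie past 2-fold in CCC minus PCC in every row. Those genes have 1 probe each, so the rows that change only detection or probe averaging repeat their values by construction. Without between-array normalization the genes and the median of all genes move left together in MCC minus PCC.

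The choice of scaling moved the sizes. The median of all genes for MCC minus PCC was -0.16 here, -0.26 under 75th percentile scaling, -0.16 in the authors' scaled table and -0.75 without between-array normalization. Relative to that median, Slc2a1 lay between -3.39 and -3.19 and Hk2 between -3.57 and -3.28 over those scalings. Pdk1 lay between -1.96 and -1.71, Eno2 between -1.97 and -1.76 and Ldha between -1.36 and -0.93. Hk1 lay between -0.22 and 0.22, so its direction relative to all genes on MCC was not settled. In CCC minus PCC, relative to the median of all genes, 4 genes were at least 2-fold lower and 0 higher under each of these scalings. Values relative to that median are the same by construction under 75th percentile scaling and without between-array normalization.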

How the data were processed

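RNA of 3 sorted cell populations was hybridised to Illumina mouse Ref8 BeadChips as biotin-labelled cRNA, 1 array per group, per the labels' protocols. The authors deposited probe intensities, made with GenomeStudio per the submitters' processing notes. Between 24.0% and 28.3% of them lie below 0, which shows a background subtraction. Each probe also has a deposited detection p-value on each array, per the file headers. The authors' scaled table of intensities, also deposited, is linear and not centred, and each of its columns is a linear function of that array's intensities (slopes 0.926, 0.865 and 1.53 for PCC, CCC and MCC, largest residual 0.0131, column medians 42.9, 32.0 and 35.1). The sources used here do not give the method behind it.

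Intensities were background-corrected, quantile normalized and put on the log2 scale with neqc (limma 3.58.1, R 4.3.3, offset 16), with negative controls inferred from the detection p-values. The rest was done with Python 3.11.15 (pandas 2.3.3, numpy 2.4.6, matplotlib 3.10.9). Of 25697 probes 23978 had 1 gene symbol, 0 several and 1719 none here, and 23962 matched the mouse reference (GRCm38.p6, for names) through the gene ID. A probe was detected at a p under 0.01, and the detected probe with the highest mean level stood for its gene. Genes were counted at a fixed 2-fold size among genes detected on both arrays. A gene seen on 1 array of a pair has a lower bound, against the higher of the other array's lowest detected level and the probe's own value. Marker sums add linear normalized intensities, offset included, of the markers detected on at least 1 array. The number of arrays limits the precision. Counting was tested on simulated data.

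The genes described and the lists of other genes were chosen with earlier results of these data known. All 10 genes are named, and of the other lists each gene at least 2-fold different in a pair, plus genes of the same step chosen after their values were seen. Tried as alternatives were no background correction, an offset of 50, 75th percentile scaling, no between-array normalization, the authors' scaled table, a detection p under 0.05, no filter and the mean of all detected probes.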

Additional observations from a re-analysis of the deposited data

How the results depend on the processing

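Of 104 values of single genes past 2-fold as recomputed under 8 alternatives, 104 kept their sign and 101 stayed past 2-fold. The 3 that did not were Pfkp in CCC minus MCC. These counts repeat the same gene and pair under each alternative. For a gene with 1 probe, a detection p under 0.05, no filter and the mean of all detected probes leave the value unchanged by construction. Agreement there carries no information. No paired analysis was possible because each group has 1 array, and for the same reason no array could be left out. Of 112 values under 2-fold, 3 changed sign, Hk1 in CCC minus PCC (0.22) and Eno2 in CCC minus MCC (0.73) without between-array normalization, and Hk1 in CCC minus MCC (-0.03) under 75th percentile scaling.

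Without between-array normalization the median of the 9 genes was -2.43 (MCC minus PCC) and 1.81 (CCC minus MCC), and 7 of them passed 2-fold in CCC minus MCC (5 under 75th percentile scaling, 3 as reported). The shift follows the median of all genes, which was -0.75 and 0.83. In the same setting the other genes of glucose metabolism at least 2-fold lower and higher numbered 17 and 5 (MCC minus PCC) and 3 and 20 (CCC minus MCC), and 1 was lower in CCC minus PCC. That count, 2 as reported (Egln3 and Myc), was also 1 without background correction, with an offset of 50 and in the authors' scaled table. With no filter on dim probes 15 were higher (MCC minus PCC) and 11 lower (CCC minus MCC), where more genes were counted. Over all genes in CCC minus PCC, the lower count was 268 as reported, 156 with an offset of 50, 121 without between-array normalization and 119 in the authors' scaled table, and the higher count was 361, 567 without between-array normalization and 720 with no filter. In MCC minus PCC without between-array normalization 2745 were lower and 473 higher, and 2014 were higher with no filter. In CCC minus MCC without between-array normalization 429 were lower and 3163 higher. The share of genes past 2-fold that were higher went in CCC minus PCC from 57.4% to 82.4% without between-array normalization, 73.1% in the authors' scaled table, 66.8% with an offset of 50 and 66.9% with no filter. In MCC minus PCC it went from 40.2% to 14.7% without between-array normalization and 50.4% with no filter, and in CCC minus MCC from 49.0% to 88.1% without it. Signal near background limits Hk1 and Pgk1.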
